A study of Mus musculus with 12 samples.

Results

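The genes described here are 10 members of the BCL-2 family, which sets whether a mitochondrion keeps its outer membrane intact. They were taken by symbol, as the rows of the deposited count table for Bcl2, Bcl2l1, Mcl1, Bcl2l11, Bbc3, Pmaip1, Bid, Bmf, Bax and Bak1, and are 10 of 26305 genes with an identifier in that table. All 10 passed the filter on low counts and were among the 11997 genes tested. By role they are 3 survival members (Bcl2, Bcl2l1, Mcl1), 5 BH3-only members (Bcl2l11, Bbc3, Pmaip1, Bid, Bmf) and 2 effector members (Bax, Bak1).

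The cells were EMRK1184luc, a B cell lymphoma line that arose in 1 female Eµ-Myc transgenic mouse and carries a lentiviral luciferase construct. Eµ-Myc drives the Myc oncogene from the immunoglobulin heavy chain enhancer, and every group shares that transgene, the luciferase construct and the origin from a single line. The 4 groups were cells given 5 µM WM-1119 for 3 days, cells given DMSO for 3 days, cells given 5 µM WM-1119 for 6 days and cells given DMSO for 6 days, with 3 replicates in each. WM-1119 inhibits the histone acetyltransferases KAT6A and KAT6B, and DMSO is its solvent. Messenger RNA was sequenced, so levels of protein and cleaved forms of BID were not measured. The series calls the replicates biological and names no separate culture, day or batch for them, so p-values reflect only how far these 12 samples spread, which may be technical.

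BCL-2 family proteins act in 3 layers. BAX and BAK open pores in the outer mitochondrial membrane, which releases cytochrome c and leads to caspase activation. BCL-2, BCL-XL (from Bcl2l1) and MCL-1 hold these effectors and their activators in check, and the BH3-only proteins, BIM (Bcl2l11), PUMA (Bbc3), NOXA (Pmaip1), BID and BMF, bind and neutralise the survival proteins or activate the effectors directly. Loss of Bim or excess of BCL-2 is known to speed lymphoma in Eµ-Myc mice, and MCL-1 is needed by many lymphomas of this model.

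Library totals were 18327651 to 28228807 counts with WM-1119 and 17928095 to 21712496 with DMSO at 3 days, and 14736267 to 17563985 with WM-1119 and 22831687 to 41749357 with DMSO at 6 days. The WM-1119 libraries of 6 days were thus the shallowest. The least counted member in any library was Bcl2, with 103 counts in each of 2 WM-1119 libraries of 6 days, and the most counted was Mcl1, with up to 10961. Of 13 B cell markers 12 averaged over 1 CPM (counts scaled to a common library size with TMM factors), and their summed level was 6112 to 6302 CPM with WM-1119 and 5701 to 5975 CPM with DMSO at 3 days, and 6174 to 6444 against 5711 to 5864 CPM at 6 days. That sum is dominated by Ighm, the IgM heavy chain gene, and single markers went both ways: of the 12, 2 were called higher and 4 called lower at 3 days, while by 6 days 6 were higher against 3 lower. Of all genes tested 11.8% were called higher and 12.6% lower at 3 days, and 15.7% and 15.1% at 6 days. Pax5, which encodes a transcription factor that fixes B cell identity, averaged 87.0 ± 3.12 CPM with WM-1119 and 121 ± 6.13 CPM with DMSO at 3 days, and 90.5 ± 3.42 against 135 ± 2.45 CPM at 6 days (SD, n = 3 each). Ebf1 and Cd22 were lower at both times too. Cd79b was higher at both times, at 407 ± 26.1 against 287 ± 20.7 CPM at 3 days and 407 ± 13.6 against 291 ± 3.65 CPM at 6 days. Ms4a1, which encodes CD20, was at or near 0 in all 12 libraries. Summed T cell markers reached at most 2.54 CPM and erythroid markers at most 1.92 CPM in any library.

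A trace of fibroblast transcripts differed between libraries. The collagen gene Col1a1 stood at 6.83, 12.9 and 0.408 CPM in the WM-1119 libraries of 6 days and at 6.10, 2.08 and 0.488 CPM in the DMSO libraries of 6 days. At 3 days it was at 0.757, 1.88 and 0.315 CPM with WM-1119 and 0.975, 0.773 and 0.454 CPM with DMSO. Summed over 15 fibroblast markers, of which 4 averaged over 1 CPM, the level was 11.7 to 58.0 CPM with WM-1119 and 18.2 to 36.6 CPM with DMSO at 6 days. At 3 days the same sum was 12.3 to 16.3 CPM with WM-1119 and 18.1 to 21.5 CPM with DMSO. Most of that 3-day sum is Fbn1, which averaged 10.1 ± 0.115 CPM with WM-1119 against 16.9 ± 1.34 CPM with DMSO. The 8 tested fibroblast markers had a median log2 fold change of 0.545 at 3 days, opposite in direction to the sum. The lower 3-day sum with WM-1119 thus follows Fbn1 and does not show less fibroblast RNA. Because Col1a1 differed between libraries, each member was also computed without the 5 libraries above 1 CPM of Col1a1. This leaves 1 WM-1119 and 1 DMSO library at 6 days, each assumed to vary like the other groups. Summed myeloid markers, of which 3 of 10 averaged over 1 CPM, were 129 to 135 CPM with WM-1119 and 126 to 133 CPM with DMSO at 3 days, and 152 to 161 against 127 to 130 CPM at 6 days. Most of that sum is Itgam, at 100 to 124 CPM in all 12 libraries. Itgam averaged 103 ± 2.57 CPM with WM-1119 and 114 ± 4.38 CPM with DMSO at 3 days, and 122 ± 3.44 against 113 ± 1.95 CPM at 6 days. It was called lower with WM-1119 at 3 days, a call lost under several alternatives, and was not called at 6 days. The other 2 markers were higher with WM-1119 at both times. Csf1r, which encodes a macrophage growth factor receptor, averaged 4.66 ± 0.287 CPM with WM-1119 and 1.04 ± 0.127 CPM with DMSO at 3 days, and 4.14 ± 0.480 against 0.835 ± 0.244 CPM at 6 days. Fcgr3, an Fc receptor gene, averaged 24.9 ± 0.949 and 13.7 ± 0.587 CPM with WM-1119 and DMSO at 3 days, and 30.2 ± 2.51 against 13.8 ± 0.192 CPM at 6 days. Whether these other transcripts take part in any result below was not tested, except as these values show.

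Set against each other per kilobase of gene model, the members kept nearly the same order in all 4 groups, with the effectors on top and Bcl2 at the bottom. Bax was highest, at 128 ± 6.53 and 129 ± 9.29 CPM per kb with WM-1119 at 3 and 6 days and at 121 ± 3.49 and 117 ± 5.53 CPM per kb with DMSO (SD, n = 3 each). Bak1 came next and Mcl1 after it. Libraries of Bak1 and Mcl1 overlapped in both DMSO groups and did not overlap in either WM-1119 group, where Bak1 averaged 85.1 and 86.5 CPM per kb against 72.7 and 77.0 for Mcl1. Bid followed at 44.8 to 51.9 and Bbc3 at 11.0 to 14.3 CPM per kb across the group means, neither overlapping its neighbours.

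The lower places of that order changed with treatment. With WM-1119, Pmaip1 held the ninth place, at 3.18 ± 0.499 CPM per kb at 3 days and 3.08 ± 0.485 at 6 days, without overlap with Bmf above it or Bcl2 below it. Bcl2l11 took the sixth place there, at 9.08 ± 0.108 and 10.6 ± 0.423 CPM per kb. With DMSO, Pmaip1 itself held the sixth place, at 8.36 ± 0.714 and 9.24 ± 0.173 CPM per kb, above Bcl2l11, Bmf and Bcl2l1, although at 3 days these 4 overlapped from each to the next. Bcl2 was lowest in every group, at 1.19 ± 0.0312 and 0.864 ± 0.158 CPM per kb with WM-1119 at 3 and 6 days and 1.34 ± 0.142 and 1.31 ± 0.0463 with DMSO. Mcl1 made up 88.2% to 91.6% of the summed survival transcript per kb in each of the 12 libraries.

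**Figure D1:**
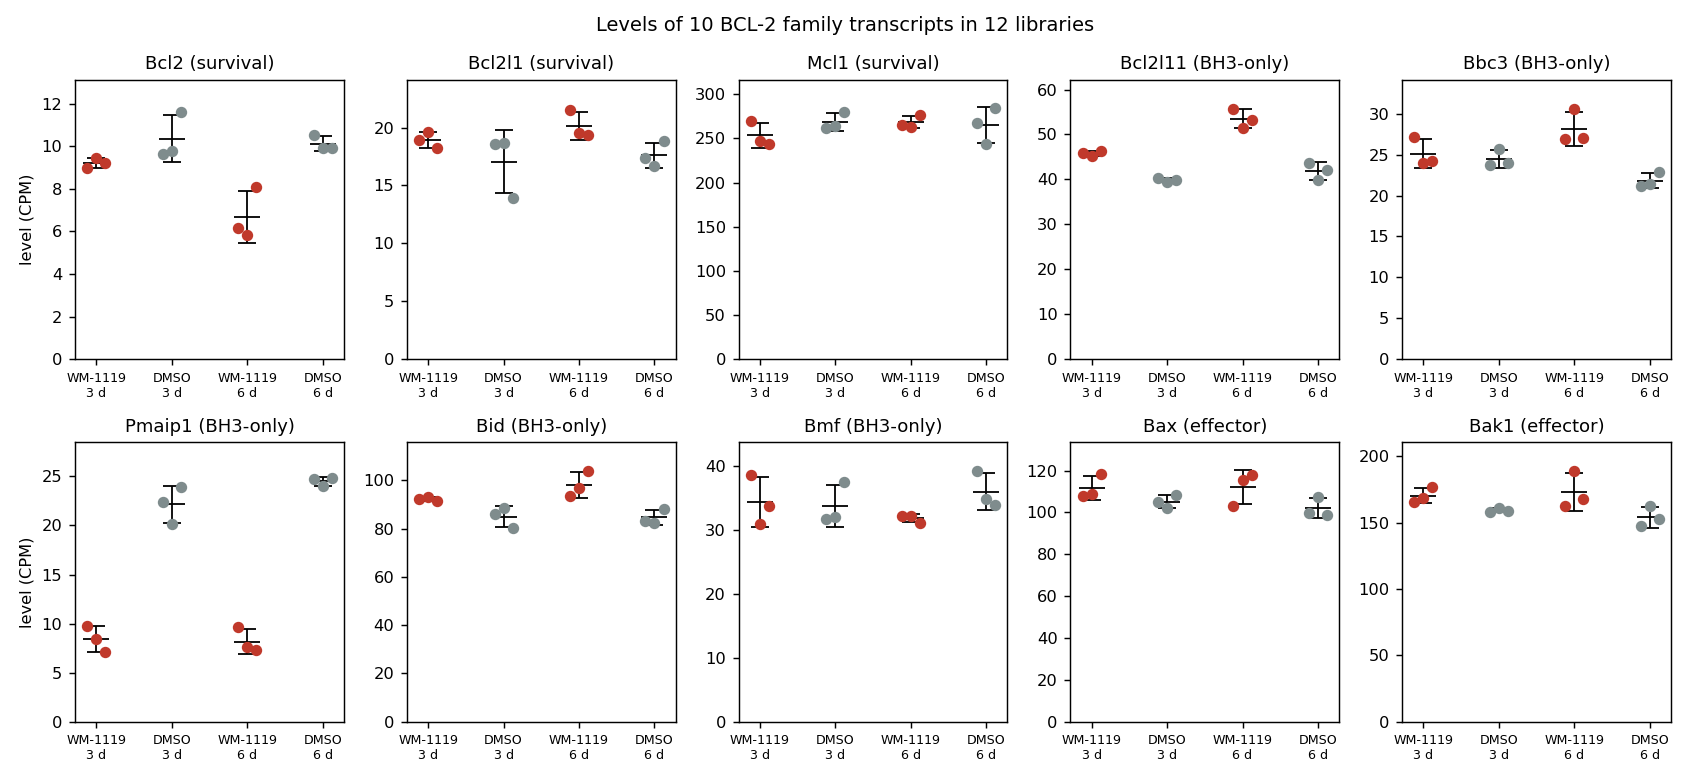
Level of each BCL-2 family member in CPM (vertical axes, from 0) in the 12 libraries, with WM-1119 in red and DMSO in grey at 3 and 6 days; points are libraries, bars the mean and SD of 3. The WM-1119 points of Pmaip1 lie between 7.08 and 9.73 CPM, below the 6 DMSO points at 20.2 to 24.8 CPM, while those of Mcl1 overlap.

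The comparison at 3 days asks which members differ after the shorter exposure. At that time 2 of the 10 members passed the test (edgeR's quasi-likelihood test, Benjamini-Hochberg adjusted p below 0.05 over all genes tested): Pmaip1 was lower and Bcl2l11 higher with WM-1119. This is 20% of the members, and over all 11997 genes 24.4% were called, 11.8% higher and 12.6% lower. None of the 3 survival members and neither effector passed. The median log2 fold change of the 10 members was 0.06, against 0.002 over all genes tested.

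At 6 days 6 of the 10 passed. Bcl2l11, Bbc3, Bid and Bak1 were higher with WM-1119, and Pmaip1 and Bcl2 lower. Over all genes 30.8% were called, 15.7% higher and 15.1% lower. By role, 1 of 3 survival members fell, 3 of 5 BH3-only members rose and 1 fell, and 1 of 2 effectors rose. The members' median log2 fold change was 0.15, against -0.004 over all genes tested. The libraries of the 2 treatments did not overlap for 5 members at 3 days and 8 at 6 days, and over all genes tested they did not overlap for 39.9% and 41.3%. DESeq2 and limma voom also called 2 members at 3 days and 6 at 6 days. Without the 5 libraries above 1 CPM of Col1a1 the count at 6 days fell to 2, Pmaip1 and Bcl2l11, and over all genes the calls at 6 days fell to 1516 of 12185 tested, against 3693 of 11997 with all libraries.

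**Figure D2:**
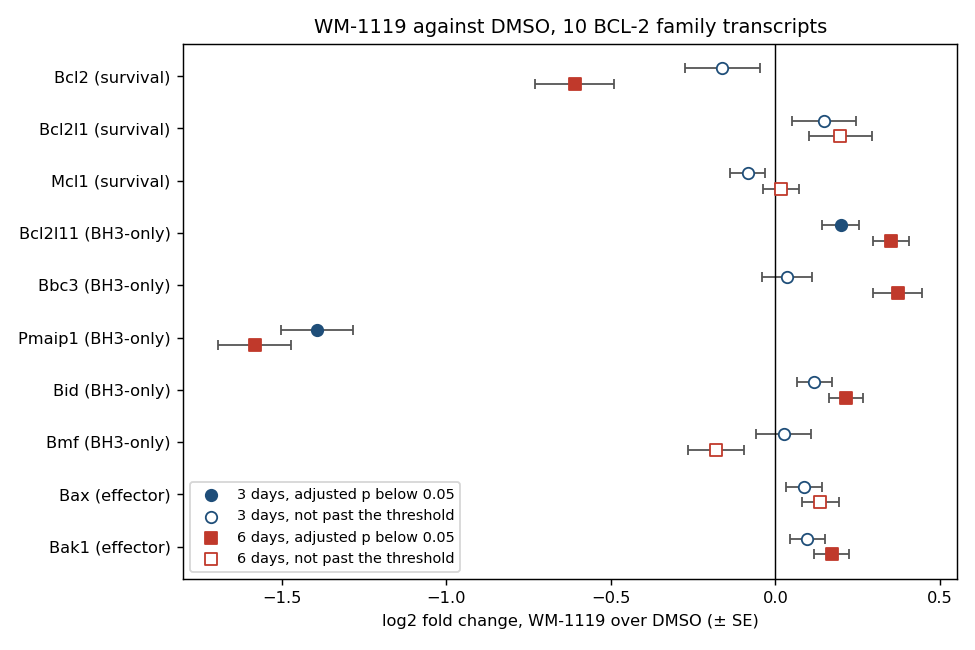
Log2 fold change of each member, WM-1119 over DMSO (horizontal axis, with standard errors), at 3 days (circles) and 6 days (squares); filled marks passed the adjusted p of 0.05. Pmaip1 stands far to the left at both times, at -1.39 and -1.58, and the other members lie between -0.61 and 0.37.

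Among the survival members, Bcl2, whose product guards the outer mitochondrial membrane and is the namesake of the family (chromosome 1, 106538176 to 106714290, mm10), had the lowest transcript. At 3 days it stood at 8.98, 9.46 and 9.24 CPM with WM-1119 and at 9.66, 9.80 and 11.6 CPM with DMSO. At 6 days it stood at 6.17, 5.82 and 8.10 CPM with WM-1119 and at 10.5, 9.93 and 9.91 CPM with DMSO. All 3 WM-1119 libraries lay below all 3 DMSO libraries at both times, and replicate 3 of the WM-1119 libraries of 6 days lay closer to DMSO than the other 2. The log2 fold change at 3 days was -0.16 ± 0.11 (SE; adjusted p = 0.332) and did not pass, and it was -0.07 without DMSO replicate 3 of 3 days. At 6 days Bcl2 was 1.53-fold lower with WM-1119 (log2 fold change -0.61 ± 0.12; adjusted p = 0.000435). WM-1119 replicates 1 and 2 of 6 days, the lowest for Bcl2, were the highest for Col1a1. DMSO replicate 1 of 6 days, next for Col1a1 at 6.10 CPM, was the highest for Bcl2 at that time. Any link between the transcripts was not tested. Without the 5 libraries above 1 CPM of Col1a1 the 6-day value was -0.29 (adjusted p = 0.411). In bulk RNA, fewer cells that hold a transcript and less of it per cell cannot be told apart, here or for the genes that follow.

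Bcl2l1, which encodes BCL-XL (chromosome 2, 152758732 to 152833803), was not called at 3 or at 6 days. It stood at 18.9, 19.6 and 18.3 CPM with WM-1119 and 18.6, 18.6 and 13.9 CPM with DMSO at 3 days. At 6 days the values were 21.6, 19.6 and 19.4 CPM with WM-1119 and 17.4, 16.7 and 18.8 CPM with DMSO. The groups overlapped at 3 days, where replicate 3 of DMSO was the lowest of all 12 libraries, and did not overlap at 6 days. The log2 fold changes were 0.15 ± 0.10 and 0.20 ± 0.10 (SE; adjusted p = 0.294 and 0.127). Without DMSO replicate 3 of 3 days the 3-day value was 0.03 (adjusted p = 0.866), and without the 5 libraries above 1 CPM of Col1a1 the 6-day value was 0.04 (adjusted p = 0.913). Counts per gene do not separate the long form of Bcl2l1, which protects, from the short form, which promotes death, nor the isoforms of Bcl2l11 and Mcl1.

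Mcl1 encodes MCL-1, a survival protein of very short half-life (chromosome 3, 95656944 to 95663179), and was the most abundant survival transcript. It stood at 270, 247 and 243 CPM with WM-1119 and 262, 264 and 280 CPM with DMSO at 3 days. At 6 days it stood at 266, 263 and 276 CPM with WM-1119 and 268, 244 and 284 CPM with DMSO. The groups overlapped at both times. The log2 fold change was -0.08 ± 0.05 at 3 days (adjusted p = 0.280) and 0.02 ± 0.05 at 6 days (adjusted p = 0.843), with 95% intervals of -0.20 to 0.03 and -0.09 to 0.13.

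Pmaip1, which encodes NOXA, a BH3-only protein that binds MCL-1 and is a textbook target of p53 (chromosome 18), changed most among the 10. At 3 days it stood at 9.73, 8.48 and 7.08 CPM with WM-1119 and at 22.4, 20.2 and 24.0 CPM with DMSO. At 6 days it stood at 9.64, 7.58 and 7.28 CPM with WM-1119 and at 24.7, 24.0 and 24.8 CPM with DMSO. Every WM-1119 library was below every DMSO library, with a wide gap at both times. Pmaip1 was 2.63-fold lower at 3 days (log2 fold change -1.39 ± 0.11, SE; adjusted p = 3.32e-09) and 3.00-fold lower at 6 days (-1.58 ± 0.11; adjusted p = 2.83e-10). It passed under all alternatives run, with values of -1.49 to -1.29 at 3 days and -1.77 to -1.51 at 6 days. In the WM-1119 libraries its share of the summed BH3-only transcript per kb was 3.90% ± 0.522 at 3 days and 3.56% ± 0.643 at 6 days. With DMSO that share was 10.3% ± 1.04 and 11.4% ± 0.135. Per kb, Pmaip1 stood at 3.46% to 4.77% of the level of Mcl1 in the 6 WM-1119 libraries and at 10.1% to 12.9% in the 6 DMSO libraries.

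Bcl2l11 encodes BIM, which binds all the main survival proteins (chromosome 2, 128126038 to 128162547). It stood at 45.8, 45.2 and 46.3 CPM with WM-1119 and 40.4, 39.4 and 39.9 CPM with DMSO at 3 days. At 6 days the values were 55.7, 51.5 and 53.3 CPM with WM-1119 and 43.7, 39.9 and 42.0 CPM with DMSO. The groups did not overlap at either time, and the spread within each was small. Bcl2l11 was 1.15-fold higher with WM-1119 at 3 days (log2 fold change 0.20 ± 0.06, SE; adjusted p = 0.0119) and 1.28-fold higher at 6 days (0.35 ± 0.06; adjusted p = 3.85e-05). It passed under every alternative run, with adjusted p of 0.00553 to 0.0478 at 3 days and 1.1e-06 to 0.040 at 6 days. The ratio of Bcl2l11 to Bcl2 per kb was 7.64 ± 0.257 with WM-1119 and 5.96 ± 0.610 with DMSO at 3 days, and 12.5 ± 2.09 with WM-1119 and 6.36 ± 0.173 with DMSO at 6 days. That ratio did not overlap between treatments at either time, and it is given with no test.

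Bbc3 encodes PUMA, another BH3-only protein induced by p53 (chromosome 7, 16308398 to 16318334). At 3 days it stood at 27.1, 24.0 and 24.2 CPM with WM-1119 and at 23.7, 25.7 and 24.0 CPM with DMSO. By 6 days it was at 26.9, 30.6 and 27.0 CPM with WM-1119 and at 21.2, 21.5 and 22.8 CPM with DMSO. The groups overlapped at 3 days and stood apart at 6 days. The log2 fold change was 0.04 ± 0.08 at 3 days (SE; adjusted p = 0.786), and at 6 days Bbc3 was 1.29-fold higher with WM-1119 (0.37 ± 0.07; adjusted p = 0.000574). Without the 5 libraries above 1 CPM of Col1a1 the 6-day value was 0.24 (adjusted p = 0.288). Bbc3 and Pmaip1, both known targets of p53, lay on opposite sides of DMSO at 6 days, and any part of p53 in this was not tested.

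For Bcl2, Bcl2l11 and Bbc3, which changed at 6 days, the 250 bases before the listed start of the gene are shown, since no exon of the GENCODE annotation lies in them and they show the base content before each listed start. They come from RefSeq, build GRCm38.p6, in the direction of transcription. Bcl2l11 and Bbc3 have several listed starts, and the window shown is that of the most upstream one listed, although the RefSeq gene of Bbc3 begins farther upstream. The Bcl2l11 window lies inside another RefSeq gene on the same strand, Acoxl (chromosome 2, 127838797 to 128126252), which averaged 0.139 CPM. The bases that follow a listed start were found in a GENCODE transcript for Bcl2l11 but not for Bcl2 or Bbc3. Where a gene has several starts, the one checked may not be the one shown. The windows are chr1:106714291-106714540 on the minus strand for Bcl2, chr2:128125788-128126037 on the plus strand for Bcl2l11 and chr7:16309333-16309582 on the plus strand for Bbc3. Capitals mark matches to the GC box (GGGCGG or CCGCCC) and, in Bcl2l11, to the CCAAT box (CCAAT or ATTGG).
Bcl2: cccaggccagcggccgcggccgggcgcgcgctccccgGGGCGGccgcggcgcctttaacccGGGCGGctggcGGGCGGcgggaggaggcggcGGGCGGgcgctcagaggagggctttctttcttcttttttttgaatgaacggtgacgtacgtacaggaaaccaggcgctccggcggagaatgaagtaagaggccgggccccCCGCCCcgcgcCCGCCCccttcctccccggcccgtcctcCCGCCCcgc
Bcl2l11: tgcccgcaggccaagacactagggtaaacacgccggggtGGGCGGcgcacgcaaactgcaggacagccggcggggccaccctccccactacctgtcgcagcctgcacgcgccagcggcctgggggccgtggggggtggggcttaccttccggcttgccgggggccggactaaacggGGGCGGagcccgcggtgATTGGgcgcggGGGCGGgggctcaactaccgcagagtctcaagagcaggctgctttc
Bbc3: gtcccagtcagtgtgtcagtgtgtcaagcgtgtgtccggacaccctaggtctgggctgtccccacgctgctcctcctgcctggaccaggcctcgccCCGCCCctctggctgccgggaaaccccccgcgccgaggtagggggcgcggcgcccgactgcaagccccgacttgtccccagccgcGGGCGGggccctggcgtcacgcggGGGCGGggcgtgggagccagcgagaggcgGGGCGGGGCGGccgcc
The G and C content was 74.8% for Bcl2, 72.0% for Bcl2l11 and 76.4% for Bbc3, against a median of 52.0% over 27025 promoter windows of that length. The Bcl2 window held 7 GC box matches, that of Bcl2l11 3 and that of Bbc3 5. Of the 10 members 9 had an entry, all but Pmaip1, and 6 of these 9 windows held a GC box, as did 33.0% of all windows. The E-box CACGTG, the sequence bound by MYC with MAX, was in 1 of the 9, that of Bax, and in 6.04% of all windows. The CCAAT box was in 2 of the 9 and in 34.5% of all windows, and the cyclic AMP response element TGACGTCA in 0 of the 9 and 1.60% of all. Both strands were searched, none of these motifs contains another, and the last 2 of the 5 GC box matches of Bbc3 overlap by 1 base. A match describes letters only and shows no binding.

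Bid encodes a BH3-only protein that caspase-8 cleaves into its active form, which links death receptors to mitochondria (chromosome 6, 120893119 to 120917062). It was the most abundant transcript among the 5 BH3-only members. At 3 days it stood at 92.5, 93.0 and 91.5 CPM with WM-1119 and 85.9, 88.7 and 80.5 CPM with DMSO. At 6 days the values were 93.4, 97.0 and 104 CPM with WM-1119 and 83.2, 82.4 and 88.4 CPM with DMSO. All WM-1119 libraries lay above all DMSO libraries at both times. The log2 fold change was 0.12 ± 0.05 at 3 days (SE; adjusted p = 0.108), and at 6 days Bid was 1.16-fold higher (0.21 ± 0.05; adjusted p = 0.00317). Without the 5 libraries above 1 CPM of Col1a1 the 6-day value was 0.23 (adjusted p = 0.117).

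Bmf encodes a BH3-only protein that is held at the cytoskeleton in healthy cells (chromosome 2, 118528757 to 118549686). It stood at 38.7, 31.0 and 33.8 CPM with WM-1119 and 31.8, 32.0 and 37.6 CPM with DMSO at 3 days, and the groups overlapped. Its 6-day values were 32.3, 32.3 and 31.2 CPM with WM-1119 and 39.3, 34.9 and 34.0 CPM with DMSO, with no overlap. The log2 fold changes of 0.03 ± 0.08 and -0.18 ± 0.08 did not pass (SE; adjusted p = 0.869 and 0.110). With the replicate number as a block the 6-day value did not pass either (adjusted p = 0.0979), and with that block in a fit of the 6-day libraries alone, chosen after the data had been seen, it did (adjusted p = 0.0328).

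The effectors moved little. Bax (chromosome 7, 45461695 to 45466903), the pore former that waits in the cytosol, stood at 108, 109 and 118 CPM with WM-1119 and 105, 102 and 108 CPM with DMSO at 3 days, and at 103, 116 and 118 CPM with WM-1119 and 99.9, 107 and 98.6 CPM with DMSO at 6 days. The groups overlapped at both times. Its log2 fold changes were 0.09 ± 0.06 and 0.14 ± 0.06 (SE; adjusted p = 0.285 and 0.0663). At 6 days Bax passed with the replicate number as a block (adjusted p = 0.0486, and 0.0311 in a fit of 6 days alone), with upper-quartile scaling (0.0401), without WM-1119 replicate 1 of 6 days (0.0234) and without DMSO replicate 2 of 6 days (0.0365).

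Bak1 (chromosome 17, 27019812 to 27028627), whose product sits in the outer mitochondrial membrane, stood at 165, 169 and 177 CPM with WM-1119 and 158, 161 and 159 CPM with DMSO at 3 days. Its 6-day values were 163, 189 and 168 CPM with WM-1119 and 147, 162 and 152 CPM with DMSO. The groups did not overlap at either time, although at 6 days replicate 1 of WM-1119 was only just above replicate 2 of DMSO. The log2 fold change was 0.10 ± 0.05 at 3 days (SE; adjusted p = 0.203), and at 6 days Bak1 was 1.13-fold higher (0.17 ± 0.05; adjusted p = 0.0173). The 6-day call was lost without WM-1119 replicate 2 of 6 days (log2 fold change 0.09; adjusted p = 0.209), without DMSO replicate 1 of 6 days (0.14; 0.0932) and without the 5 libraries above 1 CPM of Col1a1 (0.14; 0.348). Bak1 overlaps Ggnbp1 on the opposite strand, and with the strand setting of the counting unstated, reads from their shared bases cannot be told apart. Ggnbp1 averaged 41.5 ± 0.918 CPM with WM-1119 and 33.1 ± 1.28 with DMSO at 3 days, and 24.4 ± 1.37 against 23.9 ± 5.30 CPM at 6 days (SD, n = 3 each; adjusted p = 0.059 and 0.919).

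The difference of the treatment effect between the times, the effect at 6 days minus that at 3 days, passed for 0 of the 10 members by edgeR's quasi-likelihood test, by DESeq2 and by limma voom, and 0.725% of all genes passed it by edgeR. Unadjusted, 2 members had p below 0.05. For Bcl2 the difference was -0.45 ± 0.17 on the log2 scale (SE; adjusted p = 0.378) and for Bbc3 it was 0.34 ± 0.11 (adjusted p = 0.252). For Pmaip1 it was -0.19 ± 0.16 (adjusted p = 0.838) and for Bcl2l11 0.15 ± 0.08 (adjusted p = 0.655). The calls that Bcl2, Bbc3, Bid and Bak1 gained at 6 days are thus not shown to be larger effects than at 3 days.

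Time in DMSO alone moved no member past the threshold. DMSO at 6 days against DMSO at 3 days gave 0 calls among the 10 by edgeR, DESeq2 and voom, and 0.809% of all genes were called by edgeR. Bbc3, the only member with an unadjusted p below 0.05, stood at 21.2, 21.5 and 22.8 CPM at 6 days and at 23.7, 25.7 and 24.0 CPM at 3 days (log2 fold change -0.17 ± 0.07, SE; adjusted p = 0.343). The 6-day effect on Bbc3 is therefore measured against a DMSO group that lay below the DMSO group of 3 days in every library.

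Summed by role per kb, survival transcripts came to 81.9 ± 4.09 CPM per kb with WM-1119 and 85.6 ± 1.83 with DMSO at 3 days, and to 86.3 ± 1.96 with WM-1119 and 84.8 ± 6.25 with DMSO at 6 days (SD, n = 3 each). BH3-only transcripts came to 81.3 ± 2.17 and 80.9 ± 1.26 CPM per kb with WM-1119 and DMSO at 3 days, and the libraries overlapped although Pmaip1 was lower. At 6 days the BH3-only sum was 84.7, 86.8 and 88.8 CPM per kb with WM-1119 and 81.2, 78.9 and 83.3 with DMSO, without overlap. The effector sum was 214 ± 9.40 CPM per kb with WM-1119 and 201 ± 3.01 with DMSO at 3 days, and 216 ± 14.4 against 194 ± 9.06 at 6 days. At 3 days the effector sums did not overlap, and at 6 days they did.

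The ratio of the survival sum to the summed BH3-only and effector members was 0.298, 0.277 and 0.259 with WM-1119, against 0.300, 0.302 and 0.309 with DMSO, at 3 days. At 6 days it was 0.303, 0.269 and 0.287 with WM-1119, against 0.316, 0.276 and 0.332 in the DMSO libraries. The 3-day groups did not overlap, by a narrow margin, and the 6-day groups overlapped. This ratio is dominated by Mcl1 on 1 side and by Bax and Bak1 on the other, and its change depended on how it was made. On the log2 scale WM-1119 over DMSO was -0.13 at 3 days and -0.11 at 6 days. It became 0.009 and 0.05 once all measured relatives were added, within the spread of the libraries (SD of both groups joined, 0.10 and 0.13). That version counts Becn1, Bnip3, Bnip3l, Bcl2l12 and Bcl2l13, among others, with the BH3-only and effector members. The value was 0.09 at 3 days and -0.06 at 6 days when each member counted equally through its mean log2 level. No test was made of a score over chosen members.

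**Figure D3:**
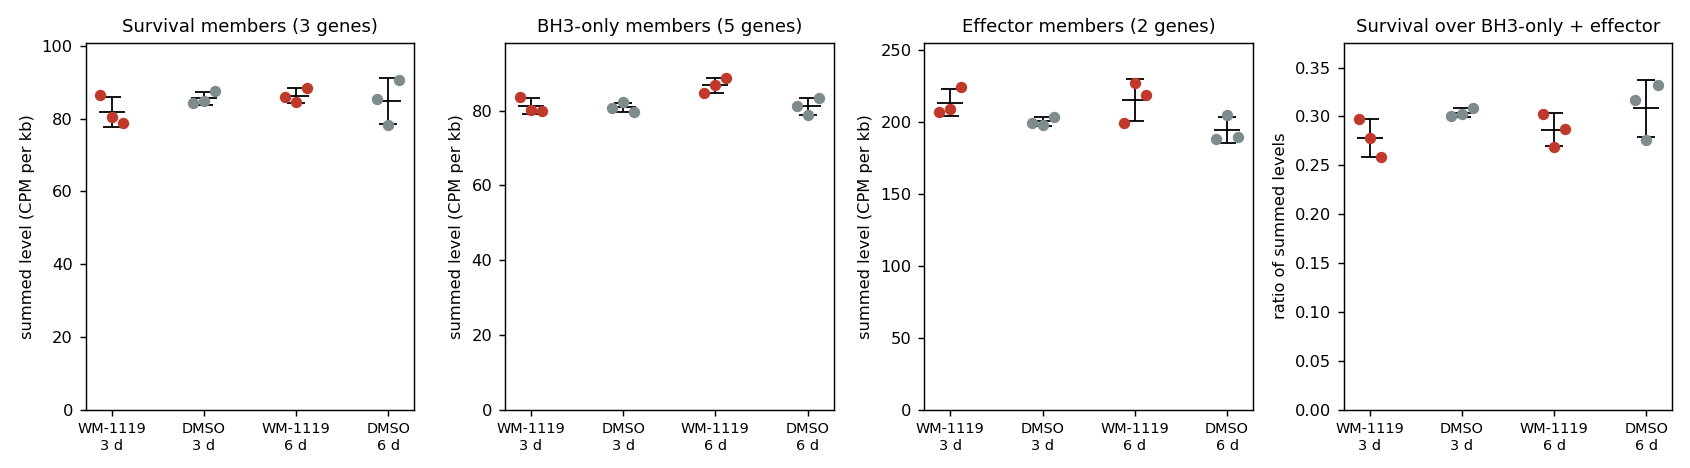
Summed level per library in CPM per kb (vertical axes, from 0) of the 3 survival, 5 BH3-only and 2 effector members, and the ratio of the first sum to the other 2; points are libraries (WM-1119 red, DMSO grey), bars the mean and SD of 3. The BH3-only sum at 6 days is 84.7 to 88.8 with WM-1119 and 78.9 to 83.3 with DMSO, and the ratios at 6 days overlap.

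Pmaip1 was the member with the largest change among those called at both times, and the genes most like it over the 12 libraries were Lgr5, St3gal6 and Serpinb1a. Likeness is the root mean square distance of centred log2 CPM, over 9569 genes averaging 5 CPM or more, whose median distance from Pmaip1 was 0.740. Lgr5, which encodes a receptor for R-spondins, lay at 0.134, with log2 fold changes of -1.47 and -1.62 at 3 and 6 days. St3gal6, a sialyltransferase gene, lay at 0.160 (-1.36 and -1.51). Serpinb1a, which encodes an inhibitor of neutrophil proteases, lay at 0.178 (-1.17 and -1.70). The distance is dominated by the split between treatments, which many called genes share.

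Of 16 further relatives of the family, 8 were tested, and 3 were higher and 3 lower with WM-1119 at each time. The shares of all genes tested were 11.8% higher with 12.6% lower at 3 days and 15.7% with 15.1% at 6 days. Bcl2l2, which encodes the survival protein BCL-W, stood at 34.1 to 37.0 CPM with WM-1119 and 26.5 to 31.0 CPM with DMSO at 3 days and at 33.2 to 36.7 against 23.0 to 28.9 CPM at 6 days. Its groups did not overlap at either time, and it rose by 0.28 ± 0.08 and 0.39 ± 0.08 on the log2 scale (SE; adjusted p = 0.0140 and 0.00101). The 3-day call was lost without WM-1119 replicate 2 of 3 days (adjusted p = 0.0736) or DMSO replicate 3 of 3 days (0.0762). Per kb Bcl2l2 averaged 10.2 and 10.2 CPM per kb with WM-1119 and 8.41 and 7.78 with DMSO, a higher level than Bcl2l1 and Bcl2 in every group. Bad, a BH3-only gene under control of growth factor kinases, rose by 0.36 ± 0.10 and 0.31 ± 0.10 (adjusted p = 0.0108 and 0.0242). The call at 3 days was lost without WM-1119 replicate 2 (0.0596) or DMSO replicate 3 (0.0509) of that time, and the call at 6 days without WM-1119 replicate 2 (0.0845) or 3 (0.102) or DMSO replicate 1 (0.136) of that time, at equal depth by thinning (0.0820) and without the 5 libraries above 1 CPM of Col1a1 (0.102), where the log2 fold change was 0.43.

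Bnip3 and Bnip3l, BH3-like genes known for mitophagy and induced by hypoxia, were lower with WM-1119. Bnip3 stood at 13.6 to 14.7 CPM with WM-1119 and 22.4 to 59.5 CPM with DMSO at 3 days, and at 15.5 to 16.7 against 39.4 to 47.2 CPM at 6 days. The DMSO libraries of 3 days differed widely among themselves but all lay above WM-1119. Bnip3 fell by 1.63 ± 0.31 and 1.44 ± 0.31 on the log2 scale (SE; adjusted p = 0.00525 and 0.00780), and Bnip3l by 0.86 ± 0.15 and 0.83 ± 0.15 (adjusted p = 0.00272 and 0.00258). The 3-day call of Bnip3 was lost in a fit of only the 3-day libraries (adjusted p = 0.0606), with a value of -1.62. Without the 5 libraries above 1 CPM of Col1a1 both genes lost their calls at both times (adjusted p = 0.187 and 0.497 for Bnip3, 0.0897 and 0.280 for Bnip3l), with log2 fold changes of -1.61 and -1.24 for Bnip3 and -0.82 and -0.77 for Bnip3l. The survival genes Bcl2a1a, Bcl2a1b, Bcl2a1d and Bcl2l10 and the BH3-only genes Hrk and Bik were at or near 0, with at most 0.162 CPM in any library.

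**Figure D4:**
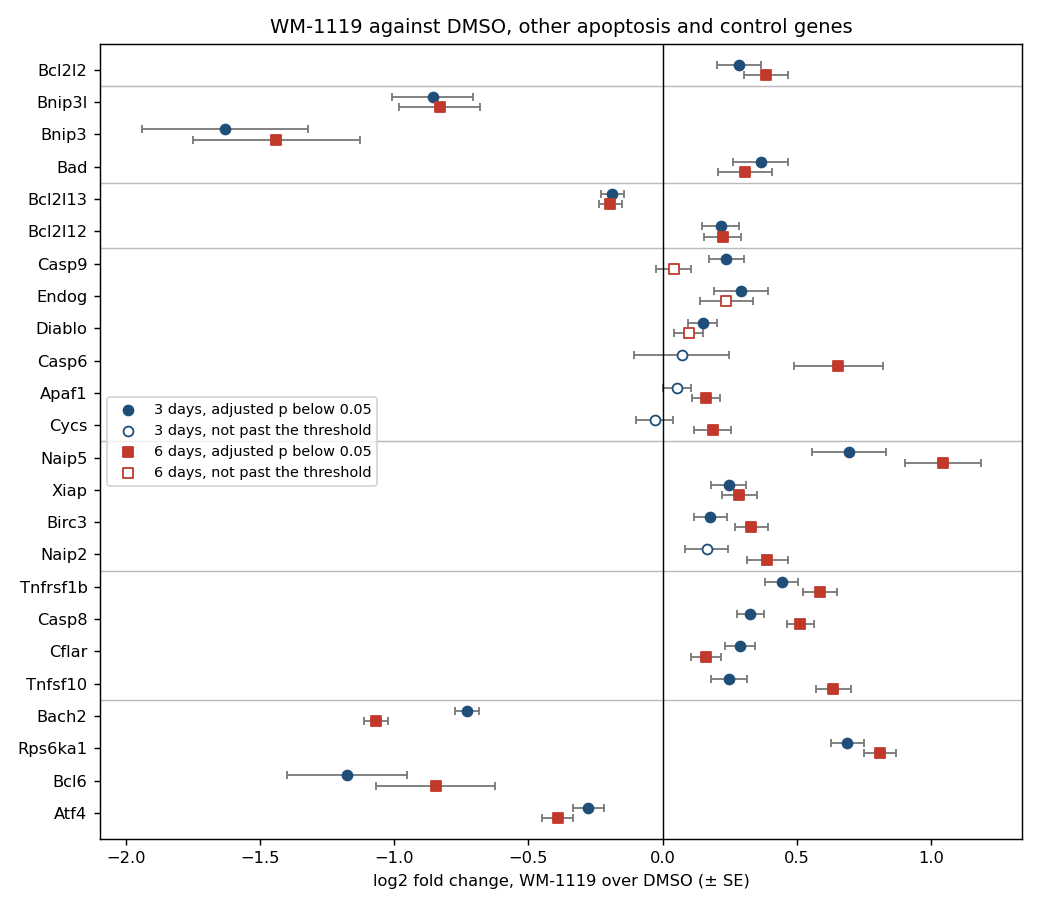
Log2 fold change, WM-1119 over DMSO (horizontal axis, with standard errors), of the named relatives of the family and other apoptosis genes at 3 days (circles) and 6 days (squares); filled marks passed the adjusted p of 0.05 and grey lines separate the gene lists. Naip5, Xiap, Birc3, Tnfrsf1b, Casp8, Cflar and Tnfsf10 lie right of 0 at both times, and Bnip3, Bnip3l and Bach2 lie left of it.

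Downstream of the mitochondrion, 3 of the 14 genes reported here of the apoptosome, the mitochondrial factors and the caspases that follow were higher with WM-1119 at 3 days and 3 at 6 days, with 0 lower at either time, where 11.8% and 15.7% of all genes tested were higher and 12.6% and 15.1% lower. Those of 3 days were Casp9, Endog and Diablo, and leaving out any 1 library of 3 days left 1 of these 3 calls, or 2 without DMSO replicate 2. Endog, which encodes a mitochondrial nuclease, lost its call in 4 of these cases (adjusted p = 0.0739 to 0.153), and also with DESeq2 (0.0532) and at equal depth by thinning (0.0556). Diablo, whose product SMAC blocks inhibitors of apoptosis, lost its call without any 1 of 5 libraries of 3 days (0.0525 to 0.145). The Diablo call was also lost with DESeq2 (0.0685), limma voom (0.0503), no filter on low counts (0.0739) and a fit of only the 3-day libraries (0.0531). Leaving out single libraries of 6 days lost it in several cases too (0.0517 to 0.0618). Casp6, an executioner caspase, was a low transcript, at 5.45 to 6.53 CPM with WM-1119 and 2.80 to 4.88 CPM with DMSO at 6 days. The groups did not overlap, and it rose by 0.65 ± 0.17 on the log2 scale (SE; adjusted p = 0.00436), while its 3-day value of 0.07 ± 0.18 did not pass (adjusted p = 0.820). Casp9, the caspase of the apoptosome, stood at 35.0 to 37.9 CPM with WM-1119 and 29.5 to 32.5 CPM with DMSO at 3 days. It was higher at 3 days (log2 fold change 0.24 ± 0.06; adjusted p = 0.00950), which was lost without WM-1119 replicate 3 (0.0565) or DMSO replicate 2 (0.0533) of 3 days. Apaf1, the scaffold of the apoptosome, rose by 0.16 ± 0.05 at 6 days (adjusted p = 0.0253), and its groups overlapped. That call was lost without WM-1119 replicate 1 (0.150) or 3 (0.0797) or DMSO replicate 1 (0.110) or 2 (0.109) of 6 days, and without the 5 libraries above 1 CPM of Col1a1 (0.728). Cycs, which encodes cytochrome c, passed narrowly at 6 days (0.19 ± 0.07; adjusted p = 0.0420) with overlapping groups. Its call was lost without any 1 of the 3 WM-1119 libraries of 6 days (0.0912 to 0.114), without DMSO replicate 1 (0.146) or 2 (0.223) of 6 days, without WM-1119 replicate 3 (0.0536) or DMSO replicate 1 (0.0522) of 3 days and in a fit of the 6-day libraries alone (0.0732). Without the 5 libraries above 1 CPM of Col1a1 its value turned to -0.009.

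Among 7 genes that encode inhibitors of apoptosis, 3 were higher at 3 days and 4 at 6 days, and 0 were lower at either time, against 11.8% and 15.7% of all genes tested higher and 12.6% and 15.1% lower. Naip5, which encodes a sensor of bacterial flagellin with inhibitor repeats, stood at 7.73 to 10.6 CPM with WM-1119 and 5.34 to 6.64 CPM with DMSO at 3 days and at 7.91 to 10.5 against 4.31 to 4.52 CPM at 6 days. The groups did not overlap, and Naip5 was 1.62-fold and 2.06-fold higher (adjusted p = 0.000658 and 5.73e-06). The Naip genes are close copies of each other, so this value is uncertain, and the counting of reads that fit several places is unstated. Xiap, which encodes a direct inhibitor of caspases, rose by 0.25 ± 0.07 and 0.29 ± 0.07 on the log2 scale (SE; adjusted p = 0.00878 and 0.00212). Its 3-day call was lost without DMSO replicate 2 of 3 days (0.0577) and its 6-day call without the 5 libraries above 1 CPM of Col1a1 (0.109), where the log2 fold change was 0.25.

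In the death receptor list, of 9 tested genes 5 were higher at 3 days and 6 at 6 days, with 0 lower. Of all genes tested 11.8% were higher at 3 days and 15.7% at 6 days, and 12.6% and 15.1% lower. Casp8, which encodes the caspase that cleaves BID, averaged 123 ± 1.79 CPM with WM-1119 and 97.9 ± 4.61 CPM with DMSO at 3 days, and 130 ± 7.08 against 91.4 ± 4.14 CPM at 6 days (SD, n = 3 each). It was 1.25-fold and 1.43-fold higher (adjusted p = 5.1e-05 and 6.73e-08), without overlap at either time. Cflar, which encodes the caspase-8 inhibitor cFLIP, was higher too, by 1.22-fold and 1.12-fold (adjusted p = 0.000605 and 0.0331). It averaged 69.4 against 56.8 CPM at 3 days and 65.1 against 58.1 CPM at 6 days. Its 6-day call depended on single libraries, with adjusted p up to 0.170 when 1 was left out. Tnfrsf1b, which encodes TNF receptor 2, was 1.36-fold and 1.50-fold higher (adjusted p = 1.31e-05 and 1.63e-07). Tnfsf10, which encodes the death ligand TRAIL, averaged 83.1 ± 0.912 CPM with WM-1119 and 70.0 ± 0.658 CPM with DMSO at 3 days, and 102 ± 3.95 against 65.2 ± 8.26 CPM at 6 days. It was 1.19-fold and 1.55-fold higher (adjusted p = 0.00871 and 1.54e-07). The transcript of its receptor, Tnfrsf10b, was low and not called at either time (adjusted p = 0.0573 and 0.417). Tnfrsf10b averaged 2.19 against 1.41 CPM at 3 days and 2.32 against 1.95 CPM at 6 days. Fas, Fasl and Tnfrsf1a, which encode the receptor CD95, its ligand and TNF receptor 1, were at or near 0 in all groups.

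Of 21 genes that control BCL-2 family transcripts or proteins, 3 were higher and 6 lower at 3 days, and 5 were higher and 5 lower at 6 days, where the shares of all genes tested were 11.8% higher with 12.6% lower at 3 days and 15.7% with 15.1% at 6 days. Rps6ka1, which encodes the kinase RSK1 that phosphorylates BAD and BIM, averaged 34.7 ± 0.847 CPM with WM-1119 and 21.6 ± 0.385 CPM with DMSO at 3 days, and 43.7 ± 0.253 against 25.0 ± 1.08 CPM at 6 days (SD, n = 3 each). It was 1.61-fold and 1.75-fold higher (adjusted p = 3.08e-08 and 7.39e-10). Bach2, which encodes a B cell transcription factor, averaged 165 ± 6.21 CPM with WM-1119 and 274 ± 6.70 CPM with DMSO at 3 days, and 154 ± 7.49 against 322 ± 5.05 CPM at 6 days. It was 1.66-fold and 2.10-fold lower (adjusted p = 9.63e-11 and 1.67e-13). Atf4, whose product is known to drive Pmaip1 under stress, fell by 0.28 ± 0.06 and 0.39 ± 0.06 on the log2 scale (SE; adjusted p = 0.00117 and 2.02e-05). Foxo1 and Foxo3, whose products are known to drive Bcl2l11 and Bbc3, went apart at 6 days, with Foxo1 higher by 0.24 ± 0.05 (adjusted p = 0.00163) and Foxo3 lower by 0.30 ± 0.07 (adjusted p = 0.00183). Both were named after their values were seen.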

How the data were processed

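The authors deposited whole-number read counts per gene for the 12 libraries, with no normalization. Per the labels' protocols an RNeasy kit yielded the RNA and the library kit, TruSeq Stranded mRNA, takes polyadenylated transcripts and marks their strand. The submitters' processing notes name featureCounts and mm10. The sources used here give no aligner, strand setting or handling of reads that fit several places. Of 27179 entries 874 had no gene identifier, held 0.305% to 0.362% of a library's counts and were left out. Symbols and positions came from RefSeq for 25275 of the other 26305.

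A model with 4 group means was fitted to all 12 libraries by quasi-likelihood (edgeR 4.0.16, R 4.3.3; TMM factors, filterByExpr by group, robust prior), and 11997 genes were tested. P-values are two-sided and come from this model, because permuting 3 libraries against 3 reaches no p under 0.1. They are adjusted by Benjamini-Hochberg over all genes tested. Levels are CPM, on TMM-scaled library sizes, and are given per kb of the deposited gene length where genes are compared. The fit was tested on simulated data. Alternatives were other scalings (RLE, upper quartile), no filter or a filter at 1 CPM in 3 libraries, other tools (DESeq2 1.42.0, limma 3.58.1 with voom), fits of only the groups compared, thinning to 14691369 counts, the replicate number as a block, leaving out each library, and leaving out the 5 libraries above 1 CPM of Col1a1.

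At 6 days deviations of same-numbered libraries from their group means correlated across genes at 0.195, 0.191 and 0.209, so the numbers were taken to pair those samples. At 3 days the correlations were -0.0244, 0.0529 and 0.000389, and the numbers were not taken to pair those samples. The main fit has no term for pairs, so its 6-day p-values leave the pairing out. The replicate block, run as an alternative, called 7 members at 6 days where the main fit called 6. Over all 11997 genes it called 3904 at 6 days where the main fit called 3693.

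The members and gene lists were chosen with earlier results of these data known. Named are all 10 members, up to 3 called genes with the smallest p at each time from each other list, and the 3 genes most like the member with the largest change. Genes of other lists not described in the text were left out for length. Some genes of one list are not reported here, and its counts leave them out.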

Additional observations from a re-analysis of the deposited data

Results flagged for a closer look

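Bach2 was the 1 gene among the named genes outside the marker lists whose effect differed between the times. Its log2 fold change was -0.73 at 3 days and -1.07 at 6 days, and the effect at 6 days minus that at 3 days was -0.34 (edgeR's quasi-likelihood test, adjusted p = 0.00998). Bach2 averaged 154 ± 7.49 CPM with WM-1119 and 322 ± 5.05 CPM with DMSO at 6 days, and 165 ± 6.21 against 274 ± 6.70 CPM at 3 days (SD, n = 3 each). The DMSO groups differed more between the times than the WM-1119 groups did.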

How the results depend on the processing

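Of 660 values of the 10 members under the alternatives, 635 kept their direction and their side of the threshold. These include fits that left out a library of a group not compared, where the log2 fold change could hardly move. The count of members called stayed at 2 at 3 days and 0 for the difference between times and for DMSO over time. At 6 days the count was 6, 7 with the replicate block, 8 with the replicate block in a fit of 6 days alone (chosen after the data had been seen), 5 to 7 leaving out 1 library, and 2 without the 5 libraries above 1 CPM of Col1a1, where each treatment has 1 library left. Apart from Bax and Bmf at 6 days, the replicate block changed no call of a member. Bax passed at 6 days with upper-quartile scaling too, where no other call of a member changed. Over all genes the calls at 6 days were 3693 of 11997 tested in the main fit and 3904 of 11997 with the replicate block. They were 4352 of 11729 with that block in a fit of 6 days alone. Leaving out 1 library turned the sign of these values, none of which passed: the difference between times of Bcl2l1 (-0.0182 to 0.170) and Bak1 (-0.00423 to 0.116), Mcl1 at 6 days (-0.0401 to 0.0685), Bbc3 at 3 days (-0.0197 to 0.0695), Bmf at 3 days (-0.0621 to 0.106) and Casp9 at 6 days (-0.00899 to 0.0726). Without the libraries above 1 CPM of Col1a1 the Bcl2l1 difference was -0.0746, Mcl1 at 6 days -0.0422 and Cycs at 6 days -0.00919. With all libraries thinned to the smallest total Bmf at 3 days was -0.0154 and Cycs at 3 days 0.000892. The cause was not tested. The ratio of survival to BH3-only and effector transcripts in plain CPM was 0.577 with WM-1119 and 0.630 with DMSO at 3 days, and 0.585 against 0.631 at 6 days. With all measured relatives added it was 0.204 against 0.202, and 0.209 against 0.202, and its log2 change moved to 0.00930 at 3 days (0.0916 by mean log2 level) and 0.0480 at 6 days. Over all genes, 46 to 217 passed the difference between times leaving out 1 library, against 87 in all. Bcl2 and Pmaip1 had the fewest counts, and the WM-1119 libraries of 6 days the least depth.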
